A study of Mus musculus with 8 samples.

Results

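STAT and IRF transcription factors were examined in primary cultured mouse microglia kept with or without IgG. The 9 genes Stat2, Stat3, Irf1, Irf2, Irf3, Irf5, Irf7, Irf8 and Irf9 were found by their symbols among the 55385 genes of the count table. All 9 had enough counts to be among the 17537 genes tested. RNA came from wild-type microglia of neocortex and hippocampus of newborn mice, with the cells of several brains pooled in flasks, collected by shaking after 12 days and replated for 3 days. The IgG group (4 libraries) received 10 µg/ml IgG for 24 h at DIV15 (day 15 in vitro). The control group (4 libraries) is called untreated in the labels and received PBS in the methods. In the labels each replicate number stands for 1 date, under which a control and an IgG library are listed, so the 8 libraries form 4 pairs.

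STATs wait in the cytoplasm until a kinase of the JAK family, bound to a cytokine receptor, phosphorylates them, and then act in the nucleus. STAT2 joins IRF9 in ISGF3, the complex through which type I interferon receptors switch on interferon-stimulated genes. IRF3 is made at a steady level and starts interferon transcription once phosphorylated, whereas the gene for IRF7 is itself an interferon-stimulated gene and amplifies the response in a feedback loop. IRF5 and IRF8 are abundant in macrophages, and IRF8 is required for microglia.

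The libraries held 21287816 to 23703216 counts. The labelled cell type was borne out by its markers, whose summed level was 5819 to 6210 CPM (counts scaled to library size with TMM) without IgG and 6148 to 7260 CPM with it. Of the 10 microglia markers, 2 passed the test with the pair as a block, Aif1 and Fcrls (edgeR quasi-likelihood, Benjamini-Hochberg adjusted p = 0.0331 and 0.0329), against 0.393% of all genes, and 5 were higher in all 4 pairs, against 10.4%. Of the others, Trem2 had a log2 fold change of -0.14 and Spi1 of 0.01 in that fit, with Trem2 higher in 1 pair and Spi1 in 2. Aif1 and Fcrls did not pass without the block (edgeR adjusted p = 0.615 and 0.634). Like all genes, they did not pass with the block when pair 2 was left out. The T and NK cell genes Cd3e and Ncr1 had 0 counts. Zbtb46, a dendritic cell gene and the 1 gene of the lymphoid and dendritic list with enough counts to be tested, had a log2 fold change of -0.18 (edgeR adjusted p = 0.830). Oligodendrocyte lineage markers, summed over 6 genes, stood at 1016 to 1588 CPM without and 856 to 1499 CPM with IgG. Astrocyte and neuron markers summed to 126 to 155 and 32.0 to 55.7 CPM. None of the oligodendrocyte, astrocyte and neuron markers passed the adjustment in either fit, but the oligodendrocyte lineage gene Olig2 (-0.50 with the block, unadjusted p = 0.00376 and adjusted p = 0.235 by edgeR) and the neuronal tubulin gene Tubb3 (-0.28) were lower in all 4 pairs, 1 of 6 and 1 of 5 markers of their lists and 0 of 6 for astrocytes, against 8.47% of all genes. The part of cell composition in the changes of the members was not tested. The share of mitochondrial counts was 4.85% for IgG library 1 and 5.59% for IgG library 3, compared with 1.97% to 2.41% for the other 6. In bulk RNA, fewer cells of a type and less RNA per cell cannot be told apart.

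The upstream DNA of 4 members is shown because Irf7 and Stat2 had the largest changes with IgG, and Irf1 and Irf8 carry a STAT-type motif and had no change past the test. RefSeq starts (GRCm38.p6) were found for all 9 members, in 12 windows of which the 250 bases before the start were searched on both strands. The searched letters were GAAANNGAAA, the core of the interferon-stimulated response element, and TTCNNNGAA, the core of the gamma-activated site bound by STAT dimers, which reads the same on both strands. Capitals mark the matches, and each stretch is given 5′ to 3′ on the strand of its gene.
Irf7, chr7:141266482-141266674, minus strand: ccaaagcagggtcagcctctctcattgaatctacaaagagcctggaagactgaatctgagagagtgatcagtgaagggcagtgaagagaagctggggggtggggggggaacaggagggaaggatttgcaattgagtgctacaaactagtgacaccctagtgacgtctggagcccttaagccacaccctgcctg
Stat2, chr10:128270248-128270497, plus strand: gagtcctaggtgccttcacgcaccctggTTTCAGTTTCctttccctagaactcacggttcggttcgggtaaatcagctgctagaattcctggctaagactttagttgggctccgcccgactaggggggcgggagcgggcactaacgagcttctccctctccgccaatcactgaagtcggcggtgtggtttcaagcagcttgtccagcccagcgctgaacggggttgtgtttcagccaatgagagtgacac
Irf1, chr11:53769764-53770013, plus strand: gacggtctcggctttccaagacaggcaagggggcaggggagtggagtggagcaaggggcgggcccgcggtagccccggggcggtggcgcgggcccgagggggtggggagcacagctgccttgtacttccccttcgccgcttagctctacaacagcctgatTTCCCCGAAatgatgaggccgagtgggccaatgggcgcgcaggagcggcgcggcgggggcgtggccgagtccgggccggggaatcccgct
Irf8, chr8:120736108-120736357, plus strand: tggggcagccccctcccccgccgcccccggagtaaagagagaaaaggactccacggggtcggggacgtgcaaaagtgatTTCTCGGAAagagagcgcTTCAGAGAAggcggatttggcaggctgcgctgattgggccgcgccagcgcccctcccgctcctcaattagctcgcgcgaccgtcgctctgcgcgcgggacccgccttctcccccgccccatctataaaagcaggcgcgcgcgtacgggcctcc
The response-element core was found on the opposite strand of Stat2, 222 to 213 bases before the start, and once before Irf2. It was present in 2.98% of the 32851 promoter windows searched in the same way. The gamma-activated core was present in 7.02% of them and was found before Irf1 and Irf2 once each and before Irf8 at 2 places. Another motif, GGAANNGAAA, on which PU.1 and IRF8 can bind together, was present in 2.3% of windows and overlapped the response-element match before both Stat2 and Irf2. The stretch of Irf7 ends 57 bases before its RefSeq start, where an annotated exon begins. None of these letters was found in the windows of Irf7, Irf9, Stat3, Irf3 and Irf5, which says only that they are not in these bases. Both windows of Irf9 lie inside the annotated span of the gene, so the bases before that span were not searched. Of their 250 bases each, 250 and 88 are exon of Irf9. In the window of Irf3, 181 bases are exon of Bcl2l12.

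Irf7 had the largest change of the 9 members and was more than 2-fold higher with IgG in each pair. Its level was 179, 103, 153 and 55.5 CPM in control libraries 1 to 4, and 372, 213, 332 and 137 CPM in IgG libraries 1 to 4. Each IgG library was above its own partner, but the groups overlapped, since IgG library 4 was below control libraries 1 and 3. The within-pair changes were 1.06, 1.05, 1.11 and 1.30 on the log2 scale. With the group as the only term, the log2 fold change was 1.10 (standard error, SE, 0.38) and the p was 0.0157 before and 0.692 after Benjamini-Hochberg adjustment over all genes tested (edgeR quasi-likelihood). With the pair as a block, it was 1.13 (95% confidence interval 0.92 to 1.34), a 2.19-fold rise, with an edgeR adjusted p of 0.00593, and only 2 of all genes tested had a smaller p. Without pair 2 the log2 fold change was 1.16 and its adjusted p 0.117, and without each other pair the adjusted p was 0.00338 to 0.0237. Irf7 rose by more than every other member in all 4 pairs. The difference from Stat2, the nearest, was 0.68 ± 0.20 (SD, n = 4 pairs) on the log2 scale. Irf7 was singled out here for its size, so this is a description. Without IgG libraries 1 and 3, which had the larger mitochondrial share, the log2 fold change of Irf7 was 0.51 without the block, and with the block and without pairs 1 and 3 it was 1.17. Both settings were chosen after seeing the data. Irf7 (ENSMUSG00000025498) lies on the minus strand at chr7:141262706-141266481 of mm10 and shares 45 bp of exon with Phrf1 on the other strand.

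**Figure D1:**
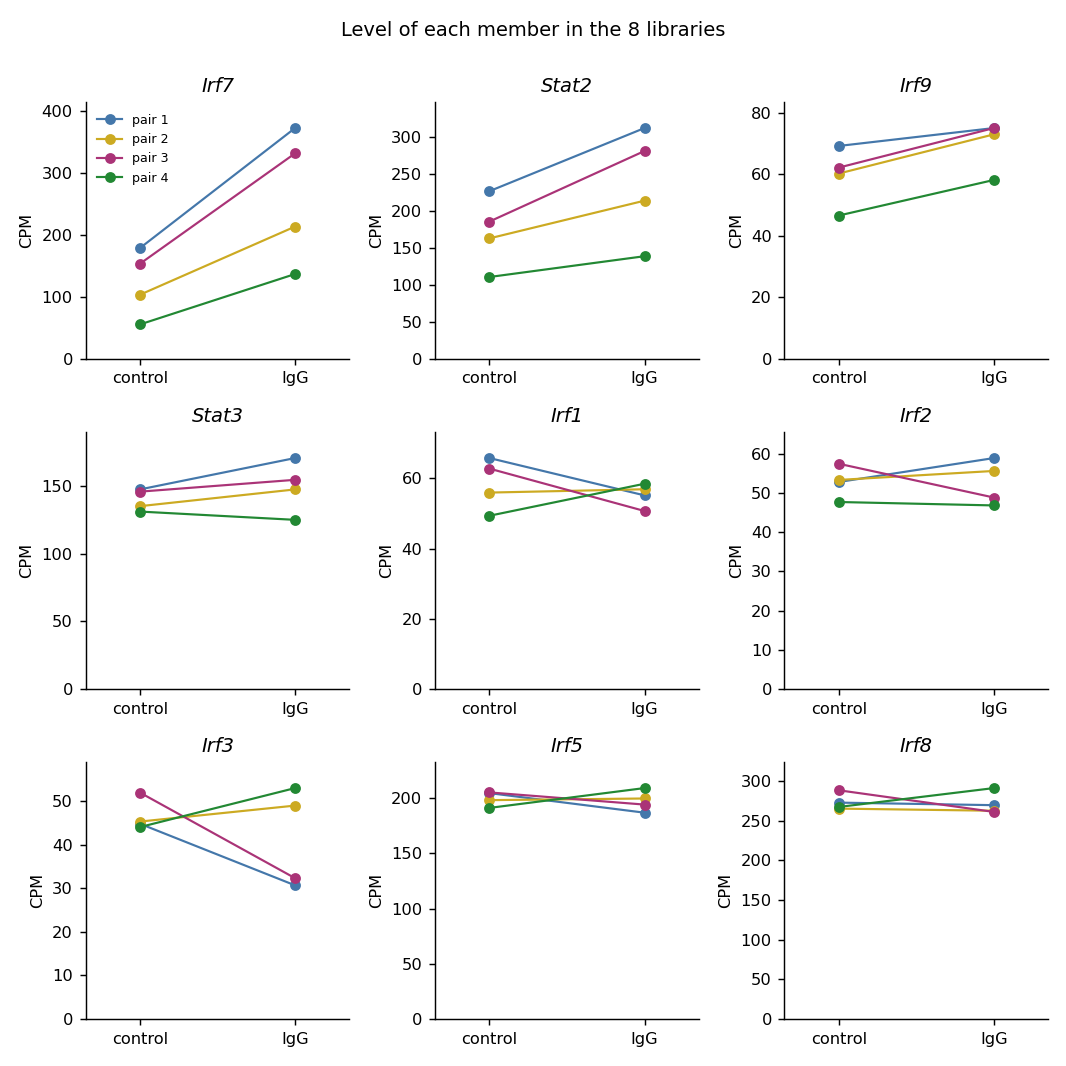
Level of each member in CPM (y axis) in control and IgG libraries (x axis), with a line joining the libraries of each pair. All 4 lines of Irf7, Stat2 and Irf9 rise, whereas those of Irf1, Irf2, Irf3, Irf5 and Irf8 run both ways.

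The ISGF3 members Stat2 and Irf9 were also higher in every pair, by smaller amounts. Stat2 (ENSMUSG00000040033, chr10:128270559-128292849 of mm10) had 227, 163, 186 and 111 CPM in control libraries 1 to 4 and 312, 214, 281 and 139 CPM in IgG libraries 1 to 4. The groups overlapped widely, as IgG library 4 was below 3 of the 4 controls. Its log2 fold change was 0.46 (SE 0.26; edgeR adjusted p = 0.697), and 0.45 with the pair as a block (95% confidence interval 0.24 to 0.65, unadjusted p = 0.000965, adjusted p = 0.110). Stat2 thus did not pass the adjustment in that test. It did so when trends on gene length and GC content were removed as well (0.46, adjusted p = 0.0238), without pair 4 (0.47, adjusted p = 0.0498), and by DESeq2 with the block (0.44, adjusted p = 0.0184). Stat2 did not pass with the block without pair 1, 2 or 3 (edgeR adjusted p = 0.567, 0.407 and 0.728). Without IgG libraries 1 and 3 its log2 fold change was 0.04 without the block, and without pairs 1 and 3 it was 0.36 with the block.

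Irf9, the DNA-binding part of ISGF3, had 69.2, 60.2, 62.2 and 46.6 CPM in control libraries 1 to 4 and 75.0, 73.0, 75.0 and 58.2 CPM in IgG libraries 1 to 4. IgG library 4 was again the lowest of its group, below 3 controls. The log2 fold change was 0.24 (SE 0.13), and 0.25 with the block (95% confidence interval 0.05 to 0.45, unadjusted p = 0.0219, adjusted p = 0.423 by edgeR quasi-likelihood). Irf9 therefore did not pass. Irf9 (ENSMUSG00000002325, chr14:55603571-55610030 of mm10) shares 123 bp of exon, 2.28% of its exon length, with Rnf31 on the same strand. Leaving out IgG libraries 1 and 3 gave a log2 fold change of 0.14 for Irf9, and leaving out both pairs gave 0.30 with the block.

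Of the 9 members, 0 passed an adjusted p under 0.05 without the block, as did 0% of all 17537 genes, while at an unadjusted p under 0.05 the count was 1 (Irf7) against 7.01% of all genes. The criterion of the study, an unadjusted p under 0.01 with a log2 fold change beyond 0.5, was met by 0 members and by 0.844% of all genes. With the block, 1 member (Irf7) passed the adjustment, against 0.393% of all genes, and the same member met the criterion, against 1.82%. The 3 members Irf7, Stat2 and Irf9 were higher in all 4 pairs, as were 10.4% of all genes tested. None of the 9 was lower in all 4 pairs, against 8.47% of all genes. The median log2 fold change of the 9 members was -0.01 and that of all genes tested 0.0036. With 9 members these counts are small, and nothing is read from them about the families.

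**Figure D2:**
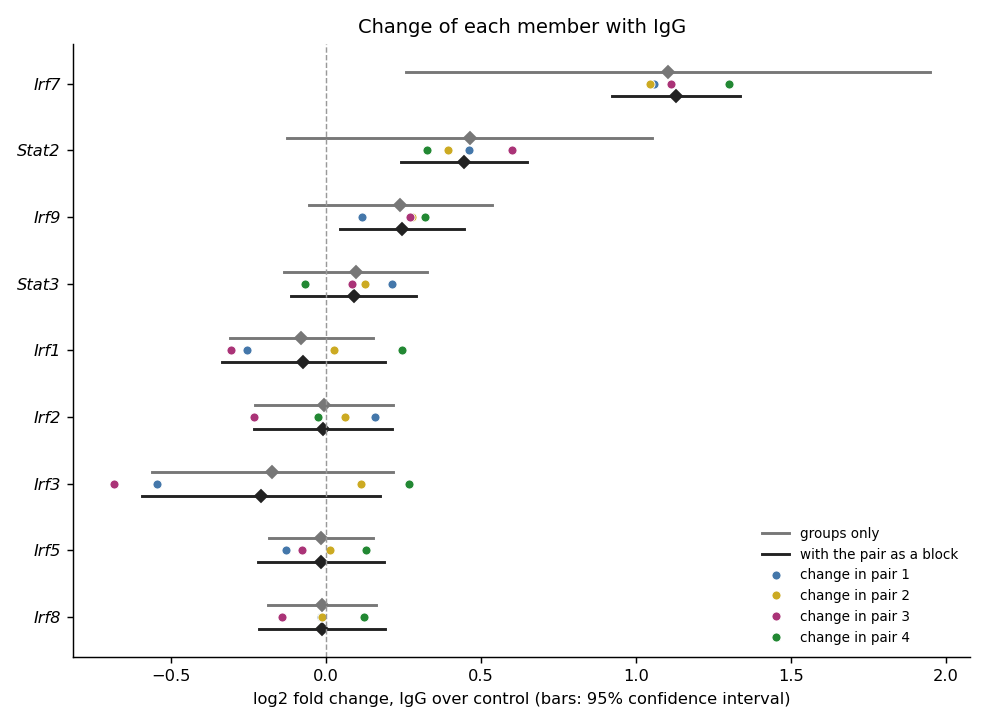
Log2 fold change of each member (x axis), with the change in each pair as colored points and the fitted value with its 95% confidence interval without (grey) and with (black) the pair as a block. The interval of Irf7 narrows from 0.26 to 1.95 to 0.92 to 1.34, and those of Irf1, Irf2, Irf3, Irf5, Irf8 and Stat3 include 0 in both fits.

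Irf3, Irf1 and Irf2, factors present without stimulation, had changes that differed in sign between pairs. Irf3 (ENSMUSG00000003184, chr7:44997648-45002848 of mm10) had 44.9, 45.4, 52.0 and 44.1 CPM in control libraries 1 to 4 and 30.7, 49.0, 32.3 and 53.1 CPM in IgG libraries 1 to 4. IgG libraries 1 and 3 were the lowest of all 8, and IgG library 4 was the highest. The within-pair changes were -0.55, 0.11, -0.68 and 0.27, and the log2 fold change was -0.17 (SE 0.18; edgeR adjusted p = 0.783) and -0.21 with the block (95% confidence interval -0.60 to 0.17). IgG libraries 1 and 3 are those with the larger share of mitochondrial counts, and without them the log2 fold change was 0.13. The 363 genes of like length and GC content had median changes of -0.11, 0.01, -0.13 and 0.18 in pairs 1 to 4, which have the same signs as those of Irf3 and are smaller. The part of these library properties in the values of Irf3 was not tested. An exon stretch of 88 bp is shared with Bcl2l12 on the opposite strand.

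Irf1, which is induced strongly by interferon-gamma, had 65.8, 56.0, 62.8 and 49.4 CPM in control libraries 1 to 4 and 55.2, 56.9, 50.7 and 58.5 CPM in IgG libraries 1 to 4. Control libraries lay on both sides of the IgG libraries. The log2 fold change was -0.08 (SE 0.10; edgeR adjusted p = 0.828), with a 95% confidence interval of -0.34 to 0.19 in the fit with the block. Irf2, a factor that competes with IRF1 for its sites, had 47.8 to 57.5 CPM without and 46.9 to 59.0 CPM with IgG, and its log2 fold change was -0.01 (95% confidence interval -0.23 to 0.21 with the block). Opposite-strand genes overlap Irf1 (Gm17334, 135 bp of exon) and lie in introns of Irf2.

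The lineage factors Irf5 and Irf8 had the smallest SD of log2 CPM among control libraries. Irf8 had 273, 265, 288 and 267 CPM in control libraries 1 to 4 and 269.5, 262, 261 and 291 CPM in IgG libraries 1 to 4, which makes it the most abundant member per library in CPM in all 4 control libraries. Its log2 fold change was -0.01 (SE 0.08; edgeR adjusted p = 0.966), with a 95% confidence interval of -0.22 to 0.19 in the fit with the block. Irf5, which acts downstream of Toll-like receptors, had 191 to 205 CPM without and 187 to 209 CPM with IgG, with a log2 fold change of -0.02 (95% confidence interval -0.22 to 0.19 with the block). A shared stretch of 411 bp with Tnpo3 on the opposite strand makes up 14.1% of the exon length of Irf5 (ENSMUSG00000029771, chr6:29526625-29541871). Irf8 (ENSMUSG00000041515, chr8:120736358-120756694) shares no exon bases with Gm20388, which spans it on the same strand. Stat3, which relays interleukin-6 and interleukin-10 signals, had 148, 135, 146 and 131 CPM in control libraries 1 to 4 and 171, 148, 155 and 125 CPM in IgG libraries 1 to 4. It was higher in 3 pairs and lower in pair 4, with a log2 fold change of 0.10 (SE 0.10; edgeR adjusted p = 0.799) that turned to -0.01 under scaling by total counts alone.

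The members differed in how much their level varied between the control libraries of the 4 pairs. Among control libraries, Irf7 ranged over 3.22-fold and Stat2 over 2.05-fold from the lowest to the highest. The SD of log2 CPM among controls was 0.75 for Irf7, 0.44 for Stat2 and 0.24 for Irf9, but 0.05 for both Irf5 and Irf8, and its median over the 9885 genes with a mean of at least 10 CPM was 0.08. Control 4 was the lowest and control 1 the highest for 5 of the 9 members, Irf7, Stat2, Irf9, Stat3 and Irf1. When the variance of log2 CPM over the 8 libraries was divided, the pair took 53.6% and IgG 46.0% for Irf7, leaving 0.38%. For Stat2 the shares were 76.6% and 22.2%, and for Irf9 66.0% and 30.9%. Over all genes with a mean of at least 10 CPM, the median shares were 43.3% for the pair and 13.2% for IgG. For Irf5, Irf1, Irf8 and Irf3 most of the variance, 91.0%, 72.2%, 71.3% and 54.2%, was in neither term.

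**Figure D3:**
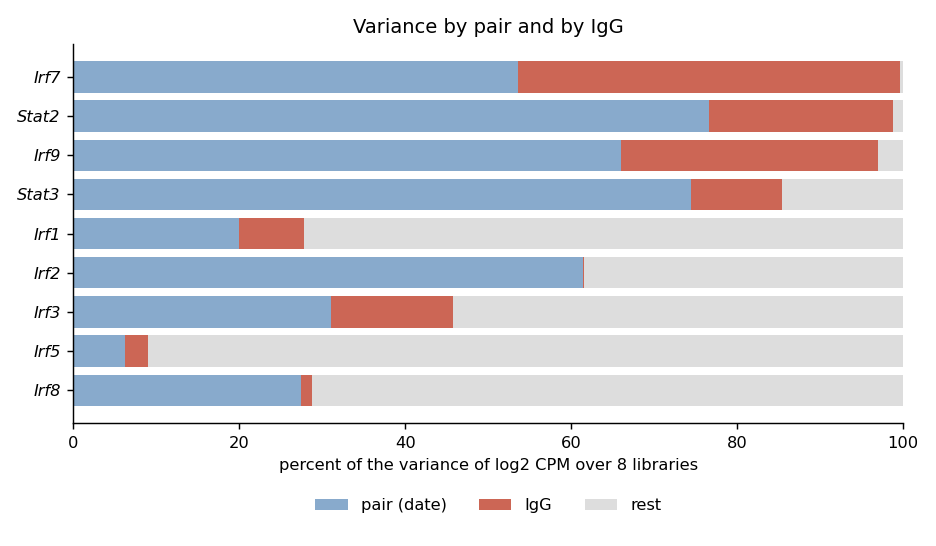
Share of the variance of log2 CPM over the 8 libraries (x axis, percent) that lay between pairs, between control and IgG, and in the rest, for each member. For Irf7, Stat2 and Irf9 the rest is 0.38%, 1.1% and 3.0%, and for Irf5 it is 91.0%.

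Levels of different genes were compared as CPM per kilobase of exon. In control libraries the order by mean was Irf5 (68.8), Irf8 (38.7), Irf7 (32.5), Stat2 (28.9), Irf1 (14.7), Stat3 (14.7), Irf3 (13.5), Irf9 (11.1) and Irf2 (7.15). Irf5 lay above Irf8, Stat2 above Irf1, and Irf9 above Irf2 without overlap of the 4 libraries, and the other neighbours overlapped. In IgG libraries Irf7 came first with 69.8 ± 28.6 CPM per kilobase (SD, n = 4), followed by Irf5 with 68.0, but the libraries of these 2 overlapped and Irf7 was the higher in only 2 of 4. Stat2 followed with 39.9 and Irf8 with 38.4, which also overlapped. The ratio of Irf7 to Irf3, the induced and the steady factor of interferon transcription, was 3.63, 2.08, 2.68 and 1.15 per length in control libraries 1 to 4 and 11.1, 3.97, 9.34 and 2.35 in IgG libraries 1 to 4. It was higher in each IgG library than in its partner, and in pairs 1 and 3 the lower Irf3 level entered the ratio too.

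**Figure D4:**
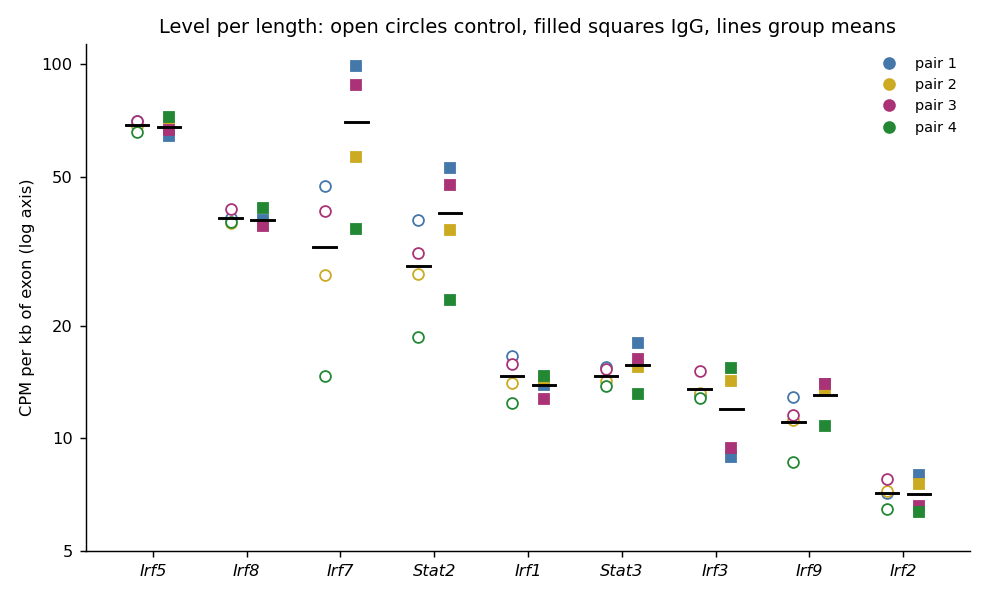
Level per length of each member in CPM per kilobase of exon (y axis, log scale), control as open circles and IgG as filled squares, colored by pair, with lines at the group means. Irf5 and Irf8 form tight groups near 68.8 and 38.7 in control, and the 4 values of Irf7 are spread in both groups.

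Across the 8 libraries, which share the effect of IgG and the differences between pairs, log2 CPM of Irf7, Stat2 and Irf9 moved together, with Pearson correlations of 0.95 for each of the 3 combinations. Stat3 ran with them too, at 0.93 with Stat2, 0.83 with Irf7 and 0.80 with Irf9. Irf3 ran with Irf5 (0.81) and against Stat3 (-0.75). Among 9884 other genes with a mean of at least 10 CPM, those most like Irf7 included Ly6e (0.997), a lymphocyte antigen family gene, and Zbp1 (0.994), a nucleic acid sensor. Those most like Stat2 were Ifit2 (0.996), Samd9l (0.995) and Ccdc167 (0.994), and those most like Irf9 were Fbxw17 (0.998), Mx2 (0.995) and Oas2 (0.990). Ly6e and Zbp1 rose with IgG in the fit with the block (adjusted p = 0.00912 and 0.00900 by edgeR quasi-likelihood). The nearest genes of Irf8 were Abt1, Wdr55 and Ndufa11, those of Irf5 Dus1l, Tcf25 and Pole3, and those of Irf3 Snhg1, Trmt1 and Rnf5. For Stat3 they were Mon1b, Lsm14a and Azi2, for Irf2 Scaf4, Cdyl and Tmem165, and for Irf1 2510039O18Rik, Gm15701 and E2f4.

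No gene of the lists upstream of the members passed the test, as is the case for nearly all genes, since 0% passed without and 0.393% with the block, and nothing is read from these counts. Of 8 tested interferon receptor and JAK genes, 0 passed an adjusted p under 0.05 in either fit of edgeR's quasi-likelihood test, and the median log2 fold change was 0.16. Il10rb, a shared receptor subunit, had 0.22 (SE 0.10), Ifngr2 0.17 and Jak2 0.23, none of which passed. Of 14 kinases and adaptors that activate IRFs, 0 passed, with a median of 0.11. Ikbke, a kinase of IRF3 and IRF7, averaged 122 ± 18.3 CPM without and 152 ± 15.4 CPM with IgG (SD, n = 4), a log2 fold change of 0.32 (SE 0.12, edgeR adjusted p = 0.692, and 0.288 with the block). Ticam1, the adaptor of Toll-like receptor 3, had 0.31. Among 8 nuclear partners, 0 passed. Batf, a partner of IRFs on DNA, had the smallest p of these, with a log2 fold change of 0.54 (0.57 with the block, unadjusted p = 0.0339 and adjusted p = 0.465 by edgeR), and was higher in all 4 pairs at 25 to 70 counts per library. The IRF2 corepressor Irf2bp2 had -0.21 and the lineage factor PU.1 (Spi1) 0.02. Of 6 tested receptors and ligands that act through STAT3, 0 passed, with a median of 0.08. Higher in all 4 pairs were 3 of the 8 receptor and JAK genes and 6 of the 14 kinases and adaptors. So were 1 of the 8 nuclear partners and 1 of these 6 genes, against 10.4% of all genes tested. The difference from all genes was not tested.

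Among the genes downstream of the members, 9 of 20 ISGF3 targets rose past the test in the fit with the block, against 0.393% of all genes. Without pair 2, 0 of all genes passed, these 9 included. All 20 listed ISGF3 targets were higher in all 4 pairs, against 10.4% of all genes, and their median log2 fold change was 0.69, against 0.0036 over all genes. None passed without the block, with 9 of the 20 at an unadjusted p under 0.05, against 7.01% of all genes. Oas3, which activates RNase L, averaged 39.0 ± 18.5 CPM without and 90.1 ± 49.1 CPM with IgG (SD, n = 4), with a log2 fold change of 1.15 with the block (SE 0.11, edgeR adjusted p = 0.00912). Ifit1 had 1.06 (adjusted p = 0.0329) and Bst2, which tethers virions, 0.53 (adjusted p = 0.284) in the same edgeR fit. The summed level of the 20 targets was 2230, 1413, 1856 and 876 CPM in control libraries 1 to 4 and 3793, 2186, 3319 and 1418 CPM in IgG libraries 1 to 4, in the same order of pairs as Irf7 in each group. Such genes were also the subject of the study, so their rise is not independent evidence for the members.

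Of 13 tested targets of IRF1 and interferon-gamma type signaling, 9 were higher in all 4 pairs, against 10.4% of all genes, with a median of 0.54. With the block 1 passed, the GTPase gene Igtp (0.60, adjusted p = 0.0362 by edgeR quasi-likelihood), against 0.393%. Igtp did not pass without the block (adjusted p = 0.692), and like all genes it did not pass without pair 2. Cxcl9, a T cell chemokine, averaged 1.50 ± 0.80 CPM without and 4.85 ± 2.86 CPM with IgG (SD, n = 4), with a log2 fold change of 1.63 with the block (adjusted p = 0.0509). Of 9 tested STAT3 targets, 0 passed, against 0.393% of all genes, 4 were higher in all 4 pairs, and the median was 0.20. The difference between the lists was not tested. Il4ra, the interleukin-4 receptor chain, had 0.51 with the block (adjusted p = 0.121) and Cebpd 0.39 (adjusted p = 0.427). Among 13 genes that restrain JAK-STAT signaling, Usp18, which blocks the interferon receptor and is also one of the ISGF3 targets above, rose by 0.68 with the block (adjusted p = 0.0350), and the other 12 did not pass. Socs1, an inhibitor of JAK kinases, went the other way, averaging 2.46 ± 0.40 CPM without and 1.45 ± 0.37 CPM with IgG (SD, n = 4), with a log2 fold change of -0.76 that met the criterion of the study without the block (unadjusted p = 0.00945, adjusted p = 0.692 in edgeR) and of -0.77 that did not meet it with the block (adjusted p = 0.413).

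**Figure D5:**
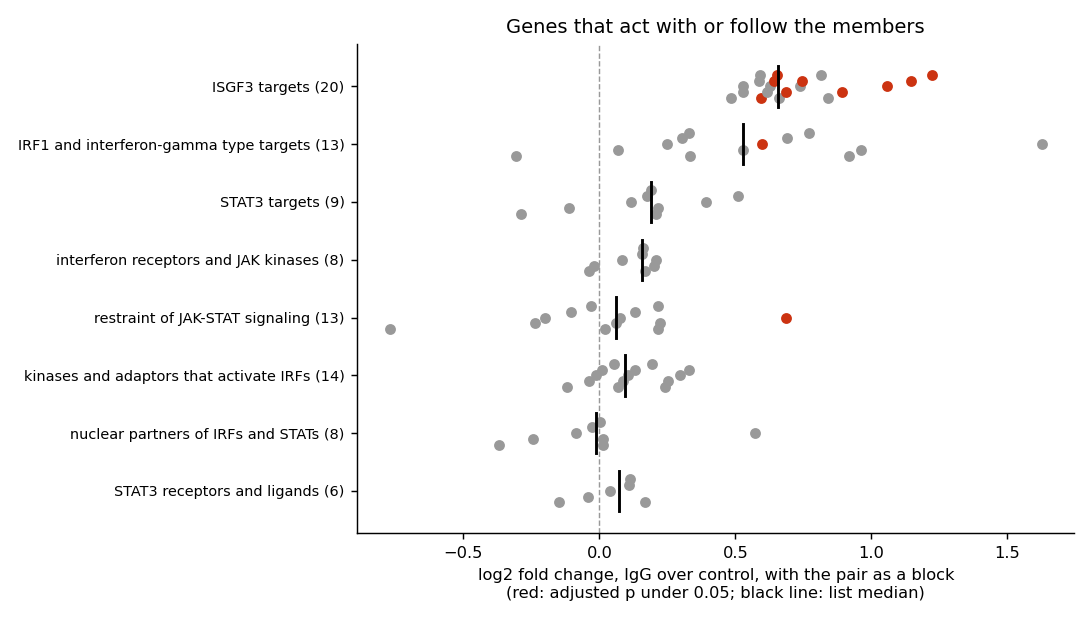
Log2 fold change with the pair as a block (x axis) of each tested gene in 8 lists (y axis, number of genes in parentheses), red where the adjusted p is under 0.05, with a line at the list median. All 20 ISGF3 targets lie right of 0 and 9 are red, and the receptor, kinase, partner and STAT3 lists hold no red point.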

How the data were processed

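RNA-seq libraries of 4 control and 4 IgG-treated microglia cultures were used. The authors deposited a table of raw counts, 1 row per Ensembl gene, from reads aligned to mm10 (GRCm38). The submitters' processing notes name HISAT2 2.2.1, SAMtools 1.12, Picard 2.26.3, featureCounts and edgeR 3.36.0 without their roles. The annotation, strand setting and handling of multiply aligned reads are not given in the sources used here, so reads of overlapping genes cannot be told apart. Positions, exon lengths and GC content came from GENCODE M21.

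Counts were scaled with TMM, filtered with filterByExpr and compared by edgeR 4.0.16 (R 4.3.3, quasi-likelihood). The model held the group alone, as the methods name no other term. Benjamini-Hochberg adjustment was made over 17537 genes. Log2 CPM used a prior count of 2. Pairing by replicate number rests on the dates in the labels, and after subtraction of group means the 2 libraries of a number correlated at 0.28 to 0.49 across 9885 genes, against -0.40 to 0.31 for different numbers. IgG library 3 correlated slightly more with control library 1 (0.309) than with its own partner (0.281), so this check does not single out pair 3. Each other IgG library correlated most with its partner. Because of the dates, the fit with this block is given beside the other. No 2 libraries of a group agreed within sampling noise. The members and lists were chosen with earlier results of these data known. All members were named, with at most 4 genes of a list (smallest p without the block, plus genes going the other way past an unadjusted p of 0.05), the 3 genes most correlated with each member and overlapping neighbours. Igtp, Spi1, Trem2, Cd3e and Ncr1 were named beyond this rule after their values were seen. Some genes that the rule names are not reported here. The statistics were tested on simulated data. Labels do not say which libraries came from separate animals, so p-values refer to these cultures. Without the block they measure the spread between cultures, and with it the spread of the changes within pairs. Alternatives were other scalings, filters, DESeq2 1.42.0, the likelihood ratio test, length and GC trends, and omission of libraries or pairs.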

Additional observations from a re-analysis of the deposited data

Results flagged for a closer look

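Of 18 groups of 4 libraries (9 members in 2 groups), 2 held a library that stood apart from the other 3, where chance alone marks about 1 group in 20. Irf3 in control library 3 was the highest of its group, at 52.0 CPM against 45.4 CPM for the next, a gap of 0.84 of the group's range. Irf9 in IgG library 4 was the lowest of its group, at 58.2 CPM against 73.0 CPM for the next, a gap of 0.88 of the range. The control partner of that library was also the lowest control for Irf9.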

How the results depend on the processing

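Irf7, Stat2 and Irf9 kept a positive log2 fold change under all 27 alternatives, and Irf7 passed the adjustment under each alternative with the pair as a block except the one without pair 2. The numbers pair the samples by date. With this replicate block, 69 genes passed the adjustment (0 without it) and 320 the criterion (148 without it), with 1 member under both and Irf7 at 1.13; it changed no other member's call. With the block and length and GC trends removed, the counts were 197 and 324 genes and 2 and 1 members, with Stat2 at 0.46, Irf7 at 1.17, Irf5 at 0.033 and Irf8 at 0.035. Without a filter, 4 genes passed the adjustment and 284 the criterion, with 1 member (Irf7). DESeq2 passed 53 genes, and the likelihood ratio test 43 with 255 at the criterion, each with 1 member at the criterion. Total counts alone shifted the median of all genes by -0.10 and the share of higher genes at the criterion from 68.9% to 42.3%, with Stat3 at -0.0078.

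Leaving out single libraries gave 0 to 6 genes past the adjustment, 87 to 610 at the criterion and 0 to 1 members, with Irf7 at 0.85 to 1.34, Stat2 at 0.29 (without control 4) to 0.65 (without IgG 4), Irf9 at 0.12 to 0.32, Irf3 at -0.32 (without IgG 4) to -0.055 (without IgG 1), Irf1 at -0.17 (without control 4) to -0.018 (without control 1), Stat3 at 0.026 (without IgG 1) to 0.17 (without IgG 4), Irf2 at -0.068 to 0.045, Irf5 at -0.052 to 0.0095 and Irf8 at -0.048 to 0.015. Leaving out a pair with the block gave 0 (pair 2) to 182 (pair 4) genes past the adjustment, 215 to 762 at the criterion and 0 to 2 members, with Irf7 at 1.06 to 1.16, Stat2 at 0.40 to 0.47, Irf3 at -0.39 (without pair 4) to -0.052 (without pair 3), Stat3 at 0.048 to 0.12, Irf1 at -0.20 to 0.0054, Irf2 at -0.066 to 0.065, Irf5 at -0.083 to 0.021 and Irf8 at -0.075 to 0.031. The cause was not tested in any case.

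Further settings were chosen after seeing the data. Length and GC trends removed without the block gave Irf5 0.037 and Irf8 0.035. Without IgG libraries 1 and 3, 1 gene passed the adjustment and 80 the criterion, with Irf7 at 0.51, Irf3 at 0.13, Stat3 at -0.038, Irf5 at 0.033 and Irf8 at 0.018. With the block and without pairs 1 and 3, 190 and 327 genes and 1 member passed, with Irf7 at 1.17, Irf1 at 0.13, Irf2 at 0.018, Irf3 at 0.19, Irf5 at 0.071 and Irf8 at 0.055, and a member median of 0.13. With the block, total counts alone gave 37 and 312 genes, 1 member, Irf7 at 1.03, Stat3 at -0.012 and a member median of -0.11, and DESeq2 size factors gave 65 and 319 genes, 1 member and Irf7 at 1.12. DESeq2 with the block gave 233 and 350 genes and 2 and 1 members, with Stat2 at 0.44 and Irf7 at 1.12, and the likelihood ratio test with the block gave 327 and 528 genes and 2 and 1 members, with Stat2 at 0.45 and Irf7 at 1.13.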
